A study of Mus musculus with 4 samples.

Results

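The 10 core genes of the circadian clock (Arntl, Clock, Npas2, Per1, Per2, Per3, Cry1, Cry2, Nr1d1 and Dbp) were followed in the liver of mice with and without an intact Fto gene. They were taken as the rows whose Ensembl identifier carries one of these symbols in GENCODE release M21, which found all 10 of 10 among the 37315 gene identifiers counted. RNA-seq had been done on 2 liver libraries of Fto knockout (KO) mice and 2 liver libraries of wild-type (WT) mice, all C57BL/6 animals of 23 weeks. The FTO enzyme strips methyl marks such as N6-methyladenosine from RNA. The sources used here do not give the knockout allele, the cells in which it was deleted, the time of day at which the livers were taken or the feeding state. They also do not say whether the libraries of a genotype came from separate animals. A p-value therefore measures only how far these libraries spread, and that spread may be technical.

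The clock of mammalian cells is a loop of transcription and translation. BMAL1, the product of Arntl, pairs with CLOCK or its relative NPAS2 and switches on the Per and Cry genes, whose proteins gather and then block that pair. An added loop runs through REV-ERBα, the product of Nr1d1, which represses Arntl, while ROR receptors activate it. DBP is an output factor driven by BMAL1 and CLOCK that binds D-box elements in other genes. In mouse liver most of these transcripts cycle over the day, with Arntl nearly opposite in phase to Nr1d1 and Dbp, so their levels depend on the hour of collection.

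No core clock gene differed between KO and WT liver at an adjusted p under 0.05. Of the 9 tested, Arntl had the lowest KO level relative to WT, at 0.495 times WT, and Dbp the highest, at 1.30 times WT, and neither passed the correction. The other 7 tested genes had log2 fold changes between -0.31 and 0.17. Npas2 had too few reads to test.

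Total counts were between 40947808 and 44689114 in the KO libraries and between 39549592 and 41332870 in the WT libraries, so 1 read stood for 0.0224 to 0.0253 CPM (read counts scaled to a common library total). Fto itself was at 13.1 and 12.1 CPM in the KO libraries, against 41.2 and 33.9 CPM in the WT libraries, and was lower in KO (edgeR quasi-likelihood test, adjusted p = 0.0109; log2 fold change -1.57 with an SE of 0.195). Hepatocyte markers were present at high levels in all libraries, with a summed level of 88023 and 94231 CPM in KO, against 78266 and 85707 CPM in WT. Of these 8 markers 0 were called by edgeR (1.91% of all tested genes). At an unadjusted p under 0.05 there was 1, against 13% of all tested genes. The libraries numbered 2 held fewer reads of long transcripts than those numbered 1. Where the longest transcript exceeded 8000 bases, the median difference between libraries 2 and 1 on the log2 scale was -0.43 in KO and -0.48 in WT.

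BMAL1 with CLOCK binds the E-box CACGTG, and DBP and its relatives bind D-boxes, of which TTATGTAA and TTACGTAA were searched. ROR receptors and REV-ERBα share an element that ends in letters such as AGGTCA. The string TNAGGTCA was searched, which is not the exact element, so it can miss its sites and match others. The cAMP response element was searched as TGACGTCA. Each was looked for on both strands of the RefSeq promoters (GRCm38.p6, 250 bases before to 50 after a gene start). A total of 9 of the 10 clock genes matched 13 promoter entries. Per2 had no entry, so its promoter was not searched. Only the stretches that hold an E-box or a D-box are shown, and matches of TNAGGTCA are not printed. Capitals mark the element, and each runs 5′ to 3′ on the strand of the gene.
Per1 E-box, chr11:69098772-69098799, plus strand: gcacccaagtcCACGTGcagggatgtgt
Cry1 E-box, chr10:85185098-85185125, minus strand: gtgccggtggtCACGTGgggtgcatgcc
Per3 D-box farther from the start, chr4:151044852-151044881, minus strand: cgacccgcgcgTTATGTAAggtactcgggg
Per3 D-box nearer to the start, chr4:151044805-151044834, minus strand: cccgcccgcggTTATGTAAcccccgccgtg

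The E-box of Per1 lay 166 to 161 bases before the start of its entry and that of Cry1 60 to 55 bases before. E-boxes were found in 2 of the 9 genes and in 7.15% of all 32851 promoter entries. Here and below a gene counted if any of its entries held the letters, while the percentages are of single entries. The measures are therefore unlike. The D-box form TTATGTAA was found in 1 of the 9 genes and in 0.938% of all entries, while TTACGTAA was found in none of the 9 and in 0.119% of entries. The string TNAGGTCA was found in Clock and Per1, and in 4.58% of entries. These matches do not tell which genes hold the element of ROR and REV-ERBα. The cAMP response element was in none of the 9 and in 1.79% of entries. No printed element overlapped another one that was searched. A match describes the letters in this window, and no binding was measured here.

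**Figure D1:**
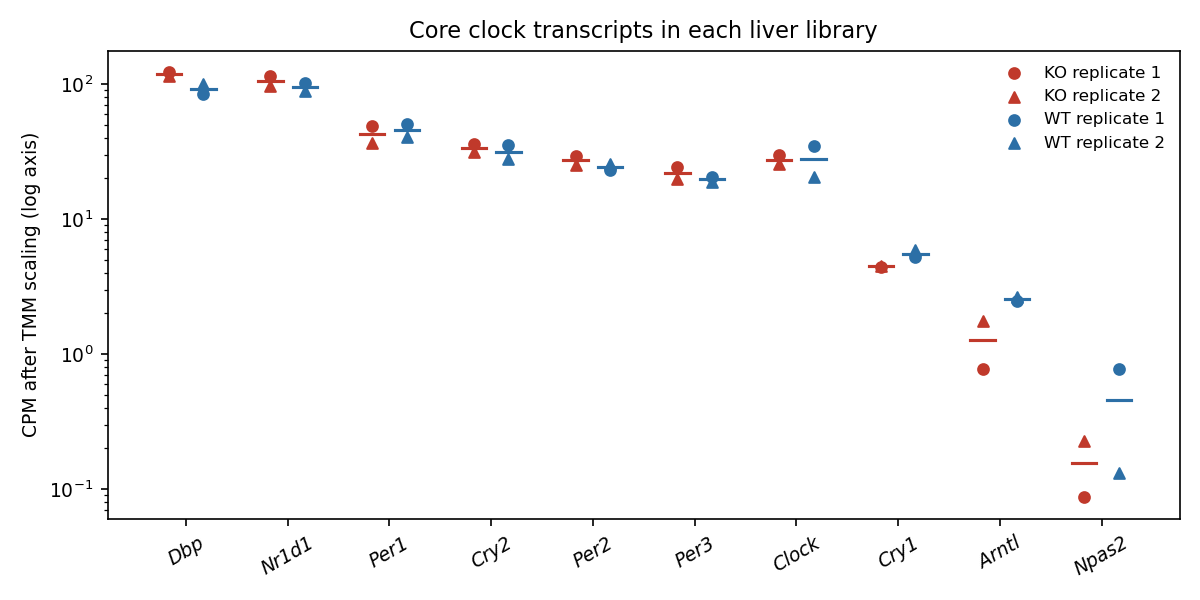
Level of each core clock transcript in the 4 liver libraries, in CPM after TMM scaling on a log axis; circles are replicate 1, triangles replicate 2, short lines the mean of a genotype, with KO left of WT and genes ordered by level per kilobase. KO and WT points overlap for 7 of the 10 genes, and Arntl (0.779 and 1.75 CPM in KO, 2.45 and 2.63 CPM in WT) shows the widest gap between genotypes among those whose points do not.

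Among the activators, Arntl (chromosome 7, 113207465 to 113314126, plus strand, mm10) had 36 and 70 reads in the KO libraries, against 104 and 100 reads in the WT libraries. This was 0.779 and 1.75 CPM in KO, against 2.45 and 2.63 CPM in WT. Both KO libraries lay below both WT libraries, and the KO libraries differed more from each other than the WT libraries did. The 95% exact Poisson intervals of the KO counts were 25.2 to 49.8 and 54.6 to 88.4 reads, so the KO libraries differed beyond counting error. In the edgeR fit the log2 fold change was -1.01 (SE 0.402, unadjusted p = 0.0369, adjusted p = 0.340). It rested on KO replicate 1: without that library it was -0.53, and without KO replicate 2 it was -1.71. Each of these fits holds 1 KO library, so the spread between KO libraries is not in it. In the alternative fits of all 4 libraries without a replicate term its adjusted p lay between 0.105 (edgeR with no filter) and 0.416 (DESeq2).

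Clock (chromosome 5, 76209868 to 76304792, minus strand), the partner of BMAL1, was at 29.6 and 25.6 CPM in KO, against 34.6 and 20.6 CPM in WT. The KO values lay inside the range of the WT values. The log2 fold change was -0.0026 (SE 0.263, adjusted p = 0.999), with a 95% interval of the fold change from 0.654 to 1.52. Clock has the longest transcript of the 10 genes, 9744 bases, and its WT libraries differed by -0.75 on the log2 scale (replicate 2 over replicate 1), against -0.21 for its KO libraries.

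Npas2 (chromosome 1, 39193731 to 39363236, plus strand), which can stand in for CLOCK, had 4 and 9 reads in KO, against 33 and 5 reads in WT. Only WT replicate 1 stood above the others, with an exact Poisson interval of 22.7 to 46.3 reads against 1.62 to 11.7 reads for WT replicate 2. These intervals cover counting error only. Npas2 did not pass the filter on low counts, and without that filter its log2 fold change was -1.56 (SE 0.732, adjusted p = 0.371, edgeR).

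The 3 Period genes, which encode the repressors that gather with the cryptochromes, did not differ beyond the spread between libraries. Per1 (chromosome 11, 69095217 to 69109960, plus strand), which also responds to glucocorticoids and cAMP, was at 48.5 and 36.4 CPM in KO, against 50.9 and 40.7 CPM in WT (log2 fold change -0.11, SE 0.216, adjusted p = 0.912). Per2 (chromosome 1, 91415982 to 91459324, minus strand) was at 29.3 and 25.1 CPM in KO, against 22.9 and 25.4 CPM in WT (log2 fold change 0.17, SE 0.187, adjusted p = 0.797). Per3 (chromosome 4, 151003652 to 151044665, minus strand), the Period gene whose loss has the mildest effect on the clock of mice, was at 24.4 and 19.7 CPM in KO, against 20.4 and 18.8 CPM in WT (log2 fold change 0.17, SE 0.195, adjusted p = 0.808). In each of the 3 genes the ranges of the genotypes overlapped, and in each the distance between the KO libraries was wider than the distance between the genotype means. The 95% intervals of the fold change were 0.654 to 1.31 for Per1, 0.833 to 1.52 for Per2 and 0.822 to 1.54 for Per3.

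The cryptochromes are the main transcriptional repressors of the loop. Cry1 (chromosome 10, 85131700 to 85185064, minus strand) had 203 and 181 reads in KO, against 220 and 224 reads in WT, or 4.39 and 4.52 CPM in KO and 5.19 and 5.88 CPM in WT. Both KO libraries lay below both WT libraries, but the difference did not pass (log2 fold change -0.31, SE 0.225, adjusted p = 0.654). Cry2 (chromosome 2, 92403646 to 92434043, minus strand) was at 36.1 and 31.4 CPM in KO, against 35.2 and 27.7 CPM in WT, with overlapping ranges (log2 fold change 0.10, SE 0.200, adjusted p = 0.912). The 95% intervals of the fold change were 0.560 to 1.16 for Cry1 and 0.777 to 1.48 for Cry2. Cry2 shares 295 exon bases (4.67%) with the noncoding transcript D930015M05Rik on the opposite strand, and Arntl 33 bases (0.439%) with Gm45355.

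Nr1d1 (chromosome 11, 98767932 to 98775333, minus strand), the repressor of Arntl in the added loop, had 5302 and 3853 reads in KO, against 4319 and 3356 reads in WT. At 115 and 96.3 CPM in KO and 102 and 88.2 CPM in WT, the ranges overlapped, and the higher library of each genotype was replicate 1. The log2 fold change was 0.15 (SE 0.186, adjusted p = 0.827), with an interval of the fold change from 0.823 to 1.498. Its exons share 263 bases, or 8.55% of their length, with those of Thra on the opposite strand. Thra encodes a thyroid hormone receptor and had 817 and 606 reads in KO and 768 and 565 reads in WT. The library kit does not mark strand, so reads of shared bases cannot be assigned to either gene.

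Dbp (chromosome 7, 45705088 to 45710203, plus strand), the output factor, had 5676 and 4623 reads in KO, against 3566 and 3785 reads in WT. It was at 123 and 116 CPM in KO, against 84.1 and 99.4 CPM in WT, so that both KO libraries lay above both WT libraries. The log2 fold change of 0.38 had an SE of 0.178 and did not pass (unadjusted p = 0.0691, adjusted p = 0.434). The interval of the fold change was 0.974 to 1.73. Dbp shares 539 exon bases, 18% of its exon length, with Sphk2 on the opposite strand, a sphingosine kinase gene with 1955 and 1828 reads in KO and 2467 and 1573 reads in WT (log2 fold change -0.18, adjusted p = 0.818).

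**Figure D2:**
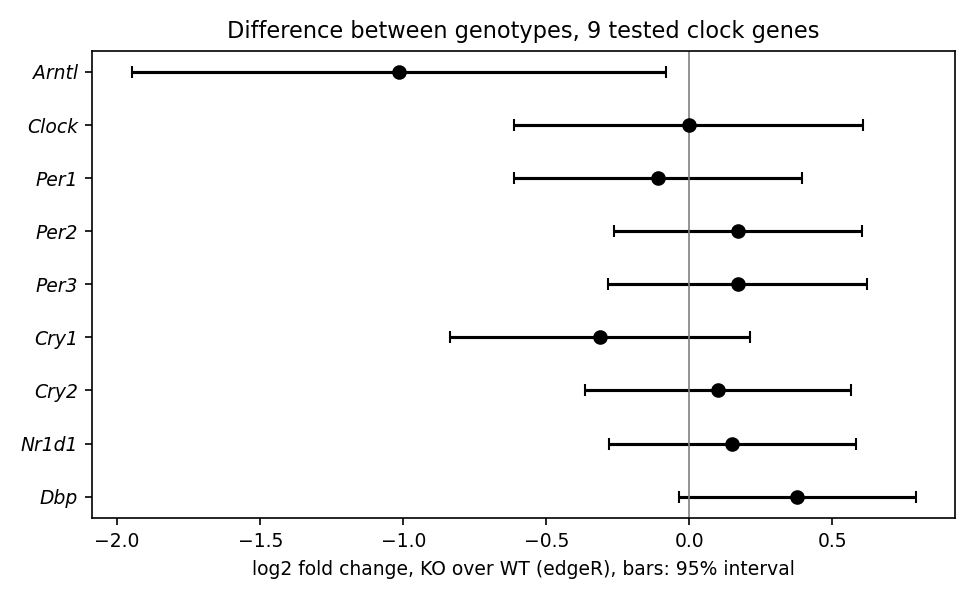
log2 fold change of KO over WT for the 9 tested core clock genes, with 95% intervals from the edgeR fit. The intervals of 8 genes cross 0, and that of Arntl runs from -1.95 to -0.080 before any correction for the number of genes tested.

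In the edgeR fit 264 of 13836 genes (1.91%) passed, with 0.961% of all genes higher in KO and 0.947% lower. Of the 9 clock genes tested, 0 were called by edgeR, 0 by DESeq2 and 0 by limma-voom, and 1, Arntl, had an unadjusted p under 0.05 by edgeR, against 13% of all tested genes. At that background share a count of 0 among 9 is not a result about the clock genes. Both KO libraries lay above both WT libraries for 1 of the 9, Dbp, against 21.6% of all tested genes, and below them for 2, Arntl and Cry1, against 20.4%. The median log2 fold change was 0.10 for the 9 genes and 0.0058 for all tested genes, and the median size of the change without its sign was 0.17 for the 9 genes and 0.23 for all tested genes. For the 8 tested genes other than Arntl, the 95% intervals of the fold change lay between 0.560 and 1.73. In bulk tissue fewer cells of a type and less RNA per cell cannot be told apart.

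**Figure D3:**
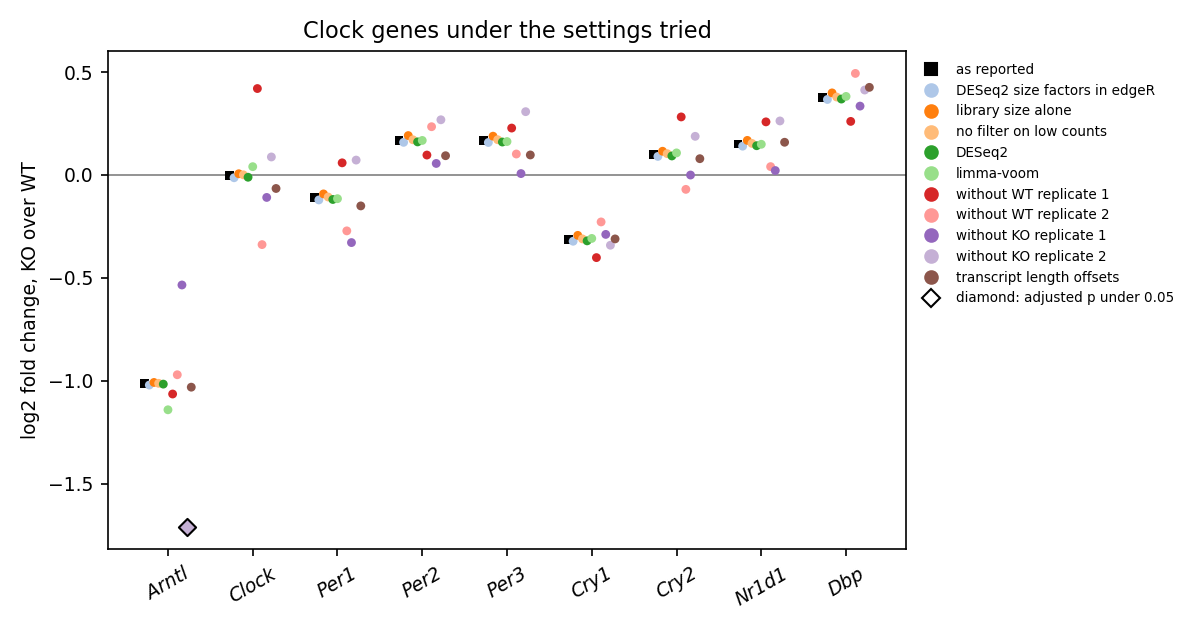
log2 fold change of KO over WT for the 9 tested clock genes under the settings tried without a replicate term, with the reported fit as a black square and a diamond where the adjusted p was under 0.05. Arntl moved from -0.53 without KO replicate 1 to -1.71 without KO replicate 2, the only diamond; Dbp stayed between 0.26 and 0.49, and Clock, Per1 and Cry2 changed sign when single libraries were left out.

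Levels of the 10 genes were compared per kilobase of annotated exon (CPM per kilobase). Dbp was highest, with a lowest, median and highest library of 28.1, 35.9 and 41.0, and Nr1d1 next with 28.7, 32.2 and 37.3. The ranges of these 2 genes overlapped. Per1 followed at 6.47 to 9.04, below Nr1d1 in every library and above Cry2 (4.39 to 5.71) in every library. Cry2 and Per2 (3.92 to 4.997) overlapped, as did Per3 (1.96 to 2.54) with Clock (1.5004 to 2.52) and Clock with Cry1 (1.31 to 1.76). Arntl was at 0.104 to 0.349 and Npas2 at 0.0181 to 0.162. On this scale Dbp exceeded 91.3% and Arntl 14.4% of all tested genes. The order of the means was the same when the longest transcript was used as the length.

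Arntl and Dbp have peaks that lie far apart in the day. Arntl ranked 9 of 10 in all 4 libraries, while Dbp ranked 1 in both KO libraries and in WT replicate 2, and 2, below Nr1d1, in WT replicate 1. Per kilobase, Dbp was 396- and 166-fold above Arntl in the KO libraries, against 86.2- and 95.1-fold in the WT libraries. Nr1d1 was 360.1- and 135-fold above Arntl in KO, against 102- and 82.1-fold in WT. The KO ratios were above the WT ratios in both cases, and the KO libraries differed from each other by more than the WT libraries did. These ratios are within a library and do not depend on how libraries were scaled. They were formed after the counts were seen, share the low Arntl counts and are given with no test. Nr1d1 and Dbp lay close to each other, with the log2 ratio of Dbp over Nr1d1 at 0.14 and 0.30 in KO and -0.24 and 0.21 in WT.

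No clock gene was called, so the genes most like Arntl, the one with the smallest p, were looked up among the 10161 other tested protein-coding genes whose average level reached 2 CPM. Likeness was the root mean square difference of centred log2 CPM over the 4 libraries. Cc2d2a, a gene of the ciliary transition zone, came closest at 0.155, followed by Armc9, another ciliary gene, at 0.168 and Mtnr1a, which encodes a melatonin receptor, at 0.173. Mtnr1a was at 1.64 and 2.67 CPM in KO, against 4.98 and 4.78 CPM in WT. Their adjusted p-values were 0.321, 0.202 and 0.117. With 4 libraries many genes can share such a pattern by their order alone.

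The other transcription factors of the loops were also not called by edgeR, and 1 had an unadjusted p under 0.05, against 13% of all tested genes. Of 11 on the list 10 were tested, 5 with positive and 5 with negative log2 fold changes, and the median was -0.029. Bhlhe41, which encodes the repressor DEC2, had the smallest p, with 8.50 and 8.35 CPM in KO, against 6.11 and 4.99 CPM in WT (log2 fold change 0.60, SE 0.218, adjusted p = 0.287). Arntl2, a close relative of Arntl, was at 0.779 and 0.900 CPM in KO, against 0.472 and 0.525 CPM in WT (adjusted p = 0.530). Nr1d2, which encodes REV-ERBβ, was at 105 and 96.5 CPM in KO, against 81.7 and 94.0 CPM in WT (adjusted p = 0.733). Ciart, a repressor of BMAL1 and CLOCK named after its values were seen, differed most between the WT libraries, at 5.85 and 13.1 CPM, with 8.95 and 8.25 CPM in KO lying between them.

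Among 18 enzymes and cofactors that modify clock proteins, all tested, 0 were called by edgeR and 1 had an unadjusted p under 0.05 (13% of all tested genes), with a median log2 fold change of 0.15. That gene was Csnk1e, a kinase of PER proteins, at 5.28 and 5.40 CPM in KO, against 3.66 and 3.55 CPM in WT (log2 fold change 0.57, SE 0.227, adjusted p = 0.346). Hdac3, the deacetylase that REV-ERB recruits, was at 23.5 and 32.5 CPM in KO, against 36.1 and 42.8 CPM in WT (adjusted p = 0.402). Timeless and the acetyltransferase gene Crebbp had log2 fold changes of 0.48 and 0.36 (adjusted p = 0.437 and 0.552). Usp2, a deubiquitinase of clock proteins named after its values were seen, was at 41.2 and 36.1 CPM in KO, against 21.7 and 40.1 CPM in WT, so that WT replicate 1 alone was low.

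Of 14 genes known as outputs of the liver clock, all tested, 2 were called higher in KO, against 0.961% of all tested genes, and 1 lower, against 0.947%. At an unadjusted p under 0.05, 4 were higher and 4 lower (13% of all tested genes in either direction), and the median log2 fold change was 0.13. Cyp7a1, the rate-limiting enzyme of bile acid synthesis, rose with a log2 fold change of 1.70 (adjusted p = 0.00802). Avpr1a, a vasopressin receptor of liver, was at 17.1 and 21.8 CPM in KO, against 8.32 and 6.36 CPM in WT (log2 fold change 1.40, SE 0.229, adjusted p = 0.0263); with library size alone it did not pass (adjusted p = 0.0579). Insig2, which restrains cholesterol synthesis and is repressed through REV-ERBα in mouse liver, fell to 108 and 134 CPM in KO, against 236 and 270 CPM in WT (log2 fold change -1.06, SE 0.192, adjusted p = 0.0392). Without KO replicate 1 the log2 fold change of Insig2 was -0.91. Rgs16, a feeding-responsive regulator of G protein signalling, was at 134 and 140 CPM in KO, against 182 and 393 CPM in WT, and did not pass (log2 fold change -1.07, SE 0.328, adjusted p = 0.199); it passed with DESeq2 (adjusted p = 0.0179), and without WT replicate 2 its log2 fold change was -0.42.

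Genes that respond to signals known to set the liver clock made up 3 further lists. The signals themselves were not measured. Of 8 glucocorticoid-responsive genes 2 were called higher in KO (0.961% of all tested genes) and 1 lower (0.947%). At an unadjusted p under 0.05, 3 were higher and 2 lower, against 13% of all tested genes in either direction. Zbtb16, a zinc finger factor induced by glucocorticoids, was at 22.5 and 18.7 CPM in KO, against 5.09 and 5.88 CPM in WT (log2 fold change 1.91, SE 0.209, adjusted p = 0.00693). Sult1e1, an estrogen sulfotransferase, was also higher (log2 fold change 4.08, SE 0.393, adjusted p = 0.00384). It had 200 and 117 reads in KO, against only 9 and 8 reads in WT, so the size of its change rests on low WT counts. Dusp1, a phosphatase of kinase cascades, fell to 11.7 and 10.6 CPM in KO, against 21.3 and 26.6 CPM in WT (log2 fold change -1.11, SE 0.201, adjusted p = 0.0398), and did not pass with library size alone (adjusted p = 0.0669). Fkbp5, a chaperone of the glucocorticoid receptor, was at 46.8 and 57.2 CPM in KO, against 21.5 and 35.3 CPM in WT, and did not pass (log2 fold change 0.87, adjusted p = 0.185). Its log2 fold change was 0.56 without WT replicate 1 and 1.27 without WT replicate 2. Leaving out KO replicate 1 gave 1.01, and leaving out KO replicate 2 gave 0.72. Fkbp5 passed with DESeq2 (adjusted p = 0.0497) and in edgeR with no filter (adjusted p = 0.00281). The called genes of this list went both ways, and its median was -0.076.

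Of 8 temperature-responsive genes 0 were called by edgeR (1.91% of all tested genes), while 4 had an unadjusted p under 0.05 (13% of all tested genes), all higher in KO, and the median was 0.51. The list joins heat shock genes with Cirbp and Rbm3, which are not heat shock genes, so its median has no single reading. Cirbp had the only negative log2 fold change, -0.37, and Rbm3 had 0.092 (edgeR adjusted p = 0.529 and 0.912). Hspa1b, an inducible heat shock protein whose counts are uncertain because Hspa1a is nearly identical, was at 15.3 and 12.2 CPM in KO, against 6.18 and 7.01 CPM in WT (log2 fold change 1.06, adjusted p = 0.0551). DESeq2 called Hspa1b (adjusted p = 0.00565), and without KO replicate 1 its log2 fold change in edgeR was 0.89. Hsp90aa1, Hspa1a and the constitutive Hspa8 had log2 fold changes of 0.57, 1.74 and 0.46 (adjusted p = 0.210, 0.315 and 0.339). Hspa1a had only 16 and 17 reads in KO, against 3 and 6 reads in WT, and an SE of 0.662. Of 8 genes of feeding and fasting 0 were called by edgeR and 2 had an unadjusted p under 0.05, against the same shares of 1.91% and 13%, both lower in KO, with a median of -0.27. These were Ppargc1a, a coactivator of gluconeogenesis, at 4.97 and 6.05 CPM in KO, against 8.30 and 9.54 CPM in WT (adjusted p = 0.219), and G6pc, the last step of glucose release (adjusted p = 0.249). The kinase gene Pdk4 was at 8.65 and 4.12 CPM in KO, against 6.56 and 11.8 CPM in WT, with a log2 fold change of -0.52 (adjusted p = 0.678). It rested on single libraries: it was -1.15 and passed without KO replicate 1 (adjusted p = 0.0445), and was -0.088 without KO replicate 2. Leaving out WT replicate 1 gave -0.88, and leaving out WT replicate 2 gave -0.047.

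**Figure D4:**
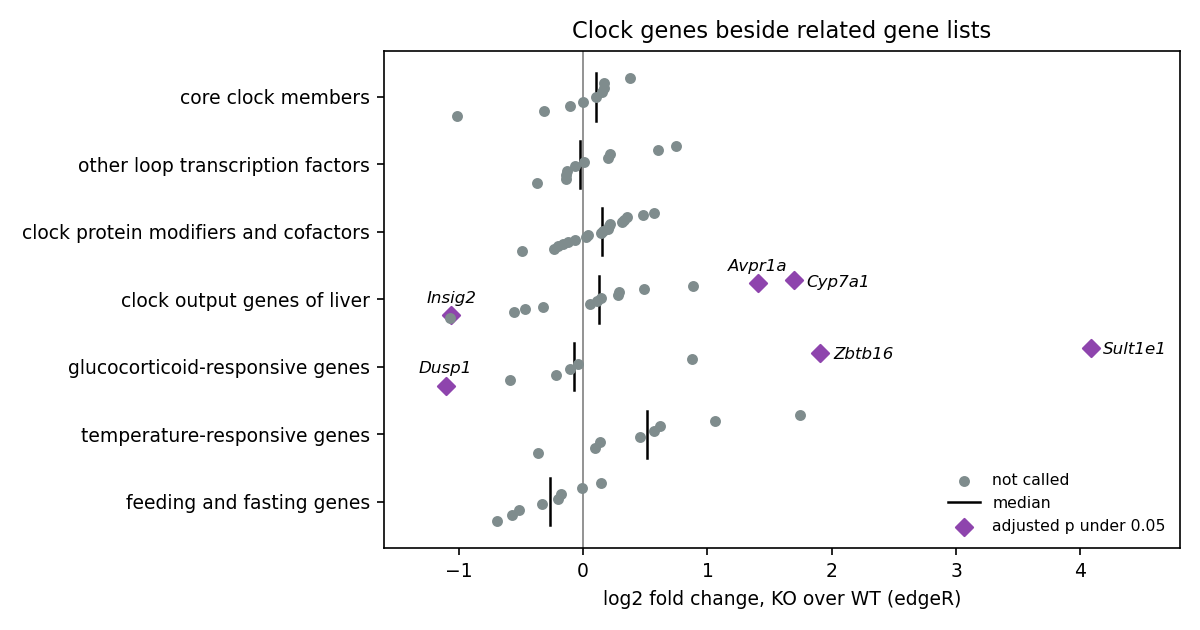
log2 fold change of KO over WT for the tested genes of the core clock and of 6 related lists, 1 point per gene, with the median of a list as a black line and genes at an adjusted p under 0.05 as named diamonds. The core clock row runs from -1.01 to 0.38 without a diamond, and the 6 diamonds lie among the clock outputs and the glucocorticoid-responsive genes.

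Macrophage markers were higher in KO in the same libraries. For all 10 Kupffer cell and macrophage markers both KO libraries lay above both WT libraries, against 21.6% of all tested genes (median log2 fold change 0.88). All 10 had an unadjusted p under 0.05, against 13% of all tested genes. By edgeR 2 were called higher, Marco and Csf1r (adjusted p = 0.0155 and 0.0478), against 0.961% of all tested genes. The summed level of the 10 was 347 and 374 CPM in KO, against 160.0 and 241 CPM in WT. The call of Csf1r was lost with library size alone (adjusted p = 0.0738). Its log2 fold change was 0.97 as reported, 0.89 without WT replicate 1 and 0.88 without KO replicate 1. The 5 tested erythroid markers all had negative log2 fold changes. For all 5 both KO libraries lay below both WT libraries, against 20.4% of all tested genes. By edgeR 0 were called (1.91% of all tested genes) and 4 had an unadjusted p under 0.05 (13% of all tested genes). The erythroid list summed to 186 and 206 CPM in KO, against 270.0 and 305 CPM in WT. Endothelial, stellate, cholangiocyte and lymphocyte lists had 0 genes called by edgeR, against 1.91% of all tested genes. In that order the lists had 1, 2, 0 and 1 members at an unadjusted p under 0.05, against 13% of all tested genes. Their sums were 136 and 115, 140 and 147, 33.6 and 44.7, and 1.51 and 2.52 CPM in KO, against 101 and 147, 139 and 187, 26.5 and 39.1, and 1.72 and 2.102 CPM in WT, in that order of lists, and Cftr of cholangiocytes was at 0 in KO replicate 2. The adipocyte list also had 0 called and 0 at an unadjusted p under 0.05, against the same shares of all tested genes. It summed to 0.497 and 6.497 CPM in KO, against 3.44 and 10.3 CPM in WT. Of its markers Lep and Slc7a10 were at 0 in both libraries numbered 1, and Adipoq and Retn were at 0 in KO replicate 1. The part of these cell types in the clock values was not tested.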

How the data were processed

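The deposited files hold whole-number counts of reads per Ensembl gene for 2 KO and 2 WT livers, not normalised. Per the labels' protocols, polyadenylated RNA was made into TruSeq v2 libraries, which carry no strand, and read on a HiSeq3000. Per the submitters' processing notes, TopHat2 2.1.1 and HTSeq 0.6.0 were used with build mm10; the sources used here name neither the annotation nor the counting options. Names and positions came from GENCODE M21 (same assembly; 35449 of 37315 identifiers matched).

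Counts were filtered with filterByExpr (minimum count 10, total 15), which left 13836 genes, and tested with edgeR 4.0.16 in R 4.3.3 (TMM, robust quasi-likelihood F test, two-sided, genotype only, Benjamini-Hochberg over all tested genes, call under 0.05). The SE is the log2 fold change over the square root of F. DESeq2 1.42.0 and limma-voom (limma 3.58.1), other scalings, no filter, offsets for transcript length, a replicate term and leaving out each library were alternatives. A fit without 1 library takes the spread between libraries from the other genotype alone. Its adjusted p is therefore not comparable with that of the reported fit. The procedure was tested on simulated data.

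The 10 genes, the lists and the ratios were chosen with earlier results of these data known. The text names all 10 genes, called genes and up to 4 smallest p of each list, and the 3 genes most like Arntl. Ciart, Usp2, Cirbp and Rbm3 were added after their values were seen, as were the genes that share exon bases with a clock gene. For cell type lists, all are summarised but only called genes and markers at 0 are named. A few genes that these rules would name are not reported here. Counts of every pair of libraries differed beyond sampling noise (chi-square per degree of freedom at least 86.5), so each library counted once. Intervals of counts cover counting error only.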

Additional observations from a re-analysis of the deposited data

How the results depend on the processing

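The count of genes called over the whole table was 264 as reported, 829 with no filter on low counts, 559 with DESeq2, 477 with transcript length offsets, and between 460 and 633 when 1 library was left out. Of the clock genes, 0 were called higher and 0 lower as reported and under the other scalings, DESeq2, limma-voom, no filter and length offsets. When 1 library was left out, the count called lower was 0 to 1 (Arntl, without KO replicate 2) and the count called higher stayed at 0. The median log2 fold change of the clock genes lay between -0.070 and 0.23 when 1 library was left out; the negative value came without WT replicate 2. Clock had a log2 fold change of 0.0060 with library size alone, 0.00078 with no filter and 0.040 with limma-voom, opposite in sign to the reported -0.0026, and -0.34 to 0.42 when 1 library was left out. In the same way Per1 ranged from -0.33 to 0.072, Cry2 from -0.070 to 0.28, Ciart from -0.61 to 0.55 and Usp2 from -0.053 to 0.82; the cause was not tested. Over the fits of all 4 libraries the adjusted p ranged from 2.16e-07 to 0.0579 for Avpr1a, 6.36e-09 to 0.0437 for Insig2 and 1.72e-06 to 0.0669 for Dusp1. In the same fits it ranged from 3.62e-05 to 0.446 for Rgs16, 3.18e-06 to 0.199 for Fkbp5 and 0.409 to 0.811 for Pdk4. For Hspa1b it ranged from 2.88e-05 to 0.0922 and for Csf1r from 5.81e-07 to 0.0738.

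With the replicate number as a block, 2729 genes were called, among the clock genes Dbp as 1 higher (log2 fold change 0.38, adjusted p = 0.00475) and Arntl as 1 lower (-1.08, adjusted p = 0.0160), and Clock had 0.034. With the block and the length offsets together 2596 were called, again 1 clock gene higher and 1 lower. Over the fits of all 4 libraries the adjusted p lay between 0.00159 and 0.665 for Dbp and between 0.0160 and 0.416 for Arntl. The differences of replicate 2 from replicate 1 correlated between genotypes with r = 0.427 across 13836 genes. For transcripts above 8000 bases the median log2 difference was -0.43 in KO and -0.48 in WT. Libraries of equal number thus shared part of their differences. No label ties equal numbers to a shared animal, litter or day, and the source of the shared part was not tested. With 2 libraries a genotype the block rests on few libraries. Among the clock genes depth limited Npas2 (4 to 33 reads) and Arntl (36 to 104 reads). Reads were also few for Arntl2 (20 to 36 reads), Hspa1a (3 to 17 reads) and Sult1e1 in WT (9 and 8 reads).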
